A study of Mus musculus with 2 samples.

Results

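A set of 10 nuclear receptor genes with known roles in the retina was examined for occupancy by ISL1, a LIM-homeodomain transcription factor of retinal ganglion cells. It held Nr2e1, Nr2e3, Nr2f1, Nr2f2, Thrb, Rxrg, Rora, Rorb, Esrrb and Nr4a2, 10 of 21887 protein-coding genes. The members of the set were all deposited intervals that touched a gene span or the 50 kb on either side of it, here called the window of the gene. This gave 154 of 123923 intervals in replicate 1 and 166 of 158881 in replicate 2 on chromosomes 1 to 19, X and Y. The rule used gene names and positions and no signal, while the genes themselves were picked with earlier results of these data known.

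The samples were 2 replicates of wild type retina at E13.5, profiled by CUT&Tag, in which an antibody held at its target in permeable nuclei recruits the Tn5 transposase to cut and tag the DNA beside it. Both received antibody against ISL1, and no control antibody, mutant retina or other group was analysed here. The tissue was whole retina, so cells with and without ISL1 were profiled together, and nothing in the labels ties either replicate to its own animals or litter, so differences between them may be technical. A pair of rabbit antibodies to ISL1 is named without saying which replicate received which. The stated question of the study was whether ISL1 acts directly on its downstream genes. With 1 group, no test between groups was possible, and the results below describe where intervals lay and which of them recurred.

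Nuclear receptors are transcription factors that bind DNA through a pair of zinc fingers, and many are switched by a small lipophilic ligand, while others are orphans with no settled ligand. Many recognise copies of a short hexamer as homodimers or as heterodimers with a retinoid X receptor. In the retina they act in progenitor proliferation (Nr2e1), dorsoventral pattern and amacrine cells (Nr2f1 and Nr2f2), cone identity and opsin choice (Thrb, Rxrg and Rora), horizontal, amacrine and rod development (Rorb), rod identity and survival (Nr2e3 and Esrrb) and amacrine subtypes (Nr4a2).

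Shared peaks, each the union of a replicate 1 and a replicate 2 interval with 1 bp or more in common, lay in the windows of 8 of the 10 receptor genes and numbered 26 in all, of 13704 in the genome. Thrb had 6, Nr2f1 had 5, Nr2e1 and Rora had 4 each, Rorb had 3, Rxrg had 2, and Esrrb and Nr4a2 had 1 each. Nr2e3 and Nr2f2 had 0. The highest-ranked of the 26 lay inside Rora, the only one uneven in both lists. The one nearest to a start site lay just before a listed start of Thrb, inside its gene span.

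The sequences upstream of 3 genes are shown for the intervals or the letters found there. They are the 250 bases before a start site, from RefSeq on GRCm38.p6, the same build as mm10, and are written along the direction of transcription. The table of starts held 15 entries for the 10 genes. For Thrb, whose shared peak was the only one over a listed promoter, capitals mark the part that the peak covers (chr14:17660710-17660959, plus strand).
Thrb upstream start: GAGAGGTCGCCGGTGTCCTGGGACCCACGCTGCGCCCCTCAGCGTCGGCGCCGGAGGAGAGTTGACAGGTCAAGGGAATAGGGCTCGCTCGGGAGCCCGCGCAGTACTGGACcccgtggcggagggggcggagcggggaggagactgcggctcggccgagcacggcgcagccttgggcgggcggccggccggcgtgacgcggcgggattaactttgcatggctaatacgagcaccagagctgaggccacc
For Nr2e1, where no interval of either list covered the listed promoter, capitals mark the only match among the member promoters to CTAATG. This LIM-homeodomain type motif reads CATTAG on this strand (chr10:42583591-42583840, minus strand).
Nr2e1: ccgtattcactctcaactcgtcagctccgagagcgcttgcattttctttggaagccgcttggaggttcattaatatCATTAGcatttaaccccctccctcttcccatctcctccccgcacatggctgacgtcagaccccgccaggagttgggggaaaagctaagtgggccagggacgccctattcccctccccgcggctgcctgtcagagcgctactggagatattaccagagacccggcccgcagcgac
For Rorb, a different start was covered in each replicate, and capitals mark the covered part. The upstream start was covered in replicate 1 (chr19:19111197-19111446, minus strand) and the downstream start, inside the gene, in replicate 2 (chr19:19001118-19001367, minus strand).
Rorb upstream start: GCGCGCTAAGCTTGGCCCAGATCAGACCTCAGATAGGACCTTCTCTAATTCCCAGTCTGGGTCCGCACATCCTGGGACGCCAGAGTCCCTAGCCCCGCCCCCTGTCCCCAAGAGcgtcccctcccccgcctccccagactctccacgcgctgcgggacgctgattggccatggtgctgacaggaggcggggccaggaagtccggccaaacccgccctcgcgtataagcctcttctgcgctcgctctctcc
Rorb downstream start: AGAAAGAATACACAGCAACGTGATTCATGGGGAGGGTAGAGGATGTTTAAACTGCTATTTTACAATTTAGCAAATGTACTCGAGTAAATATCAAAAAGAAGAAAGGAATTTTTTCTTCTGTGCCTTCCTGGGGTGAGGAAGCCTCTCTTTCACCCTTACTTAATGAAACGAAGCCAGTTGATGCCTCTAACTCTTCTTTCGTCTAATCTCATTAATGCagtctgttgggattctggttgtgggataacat

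Matches were sought on both strands in the 300 bases of each listed promoter, 250 before and 50 after the start. CTAATG or its complement was present in 1 of the 15 member promoters, that of Nr2e1 with its first base at position -174 from the start, and in 6.44% of 21263 promoters of protein-coding genes. TAATTA, a further homeodomain motif, was in 0 of 15 and in 4.53% of all. AGGTCA, the nuclear receptor hexamer, was in 2 of 15, those of Thrb and of the Rxrg downstream start, and in 14.7% of all. The E-box CAGCTG was in 3 of 15 and in 15.6% of all. In the Thrb promoter the hexamer began at position -184, within the bases covered by the shared peak and beyond those covered in replicate 1. At the Rxrg downstream start AGGTCA and CAGCTG overlapped, at -88 and -84. A match describes these letters only.

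**Figure D1:**
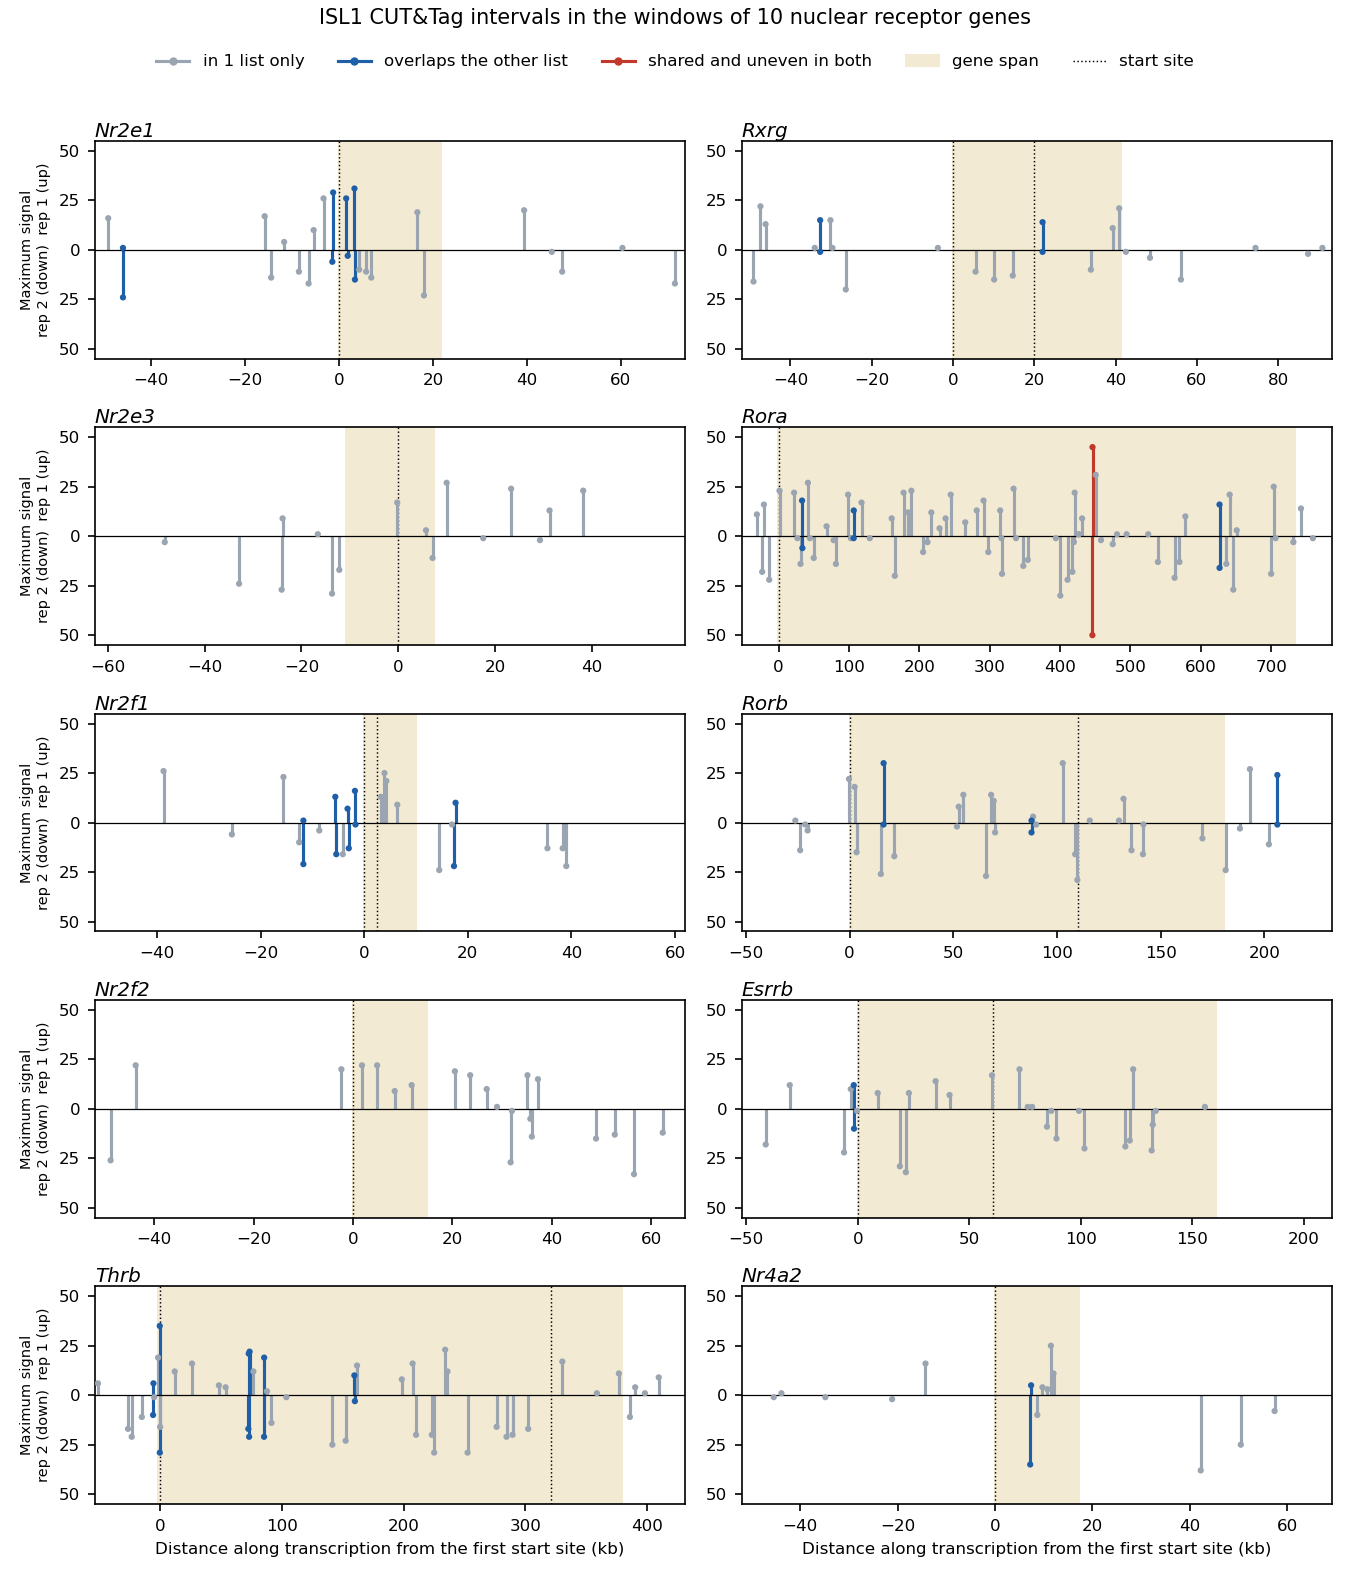
Maximum signal of every interval in the window of each receptor gene (y axis, coverage; replicate 1 upward, replicate 2 downward) against distance along transcription from the first listed start site (x axis, kb). The red bars in Rora, at 45 and 50, are the highest of the 10 windows in each list, and Nr2e3 and Nr2f2 show no blue bars, which mark overlap between the lists.

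The Rora peak had the strongest signal of the set in both replicates. Rora encodes an orphan receptor that takes part in cone development and is also known from the cerebellum and the circadian clock. The peak lay at chr9:69099134-69100380, inside the gene span (chr9:68653404-69388246, 734843 bp) and 445348 bp beyond its listed start. The maximum signal, which is the highest coverage in an interval as the authors deposited it, was 45 in replicate 1 and 50 in replicate 2. By total signal the intervals ranked 147 of 123923 and 81 of 158881, and the peak ranked 62 of 13704 shared peaks. Coverage was uneven in both lists, meaning a total under 95% of width times maximum, at 84.4% and 49.7%. Since coverage of a lone fragment, amplified or not, is flat, an uneven interval holds more than 1 distinct fragment. The replicate 1 interval of 714 bp lay wholly within the 1247 bp interval of replicate 2. Ice2 had the nearest coding start, 298241 bp away, while Rora was the only coding span overlapped.

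Rora held 3 further shared peaks, none uneven in either list. Those at chr9:68686962-68687946 and chr9:68760410-68760744 had maxima of 18 and 6, and of 13 and 1, in replicates 1 and 2. The intervals of these pairs overlapped by 9 bp and 49 bp. The peak at chr9:69280166-69280594 had a maximum of 16 in both lists and was kept by each of 5 definitions of a shared peak (an overlap of 1 bp, a reciprocal overlap of 50%, midpoints within 200 bp, a maximum of at least 10, and ends not identical). Also kept by all 5 were the uneven Rora peak, chr14:17660564-17660821 at Thrb, chr13:78203894-78204706 at Nr2f1 and chr12:86359106-86359774 at Esrrb. No other peak of the set was. In a window of 834843 bp, Rora had 38 and 39 intervals, and its density of 0.48 shared peaks per 100 kb was below the median of 0.555 over all protein-coding genes.

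Thrb encodes thyroid hormone receptor beta, whose TRbeta2 isoform directs cones towards M opsin, and it had the most shared peaks of the set. Of its 6, 5 lay inside the gene span (chr14:17659225-18040097). The promoter peak at chr14:17660564-17660821 ended 139 bp before the upstream listed start. It had maxima of 35 and 29, with flat coverage (a total equal to width times maximum) in both, and ranked 1660. Whether the signal of either interval came from copies of 1 fragment was not tested. Replicate 2 had a further interval across that start (chr14:17660864-17661066, maximum 16), and replicate 1 one 1535 bp before it (maximum 19). LOC115488350, a coding gene model, overlaps this stretch, and the 2 genes cannot be told apart there.

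A pair of neighbouring Thrb peaks lay 72254 bp or more beyond that start, at chr14:17733214-17733877 and chr14:17733898-17734690. Their maxima were 21 and 17, and 22 and 21, and the latter ranked 598. The overlap between the lists was 1 bp in the former and 36 bp in the latter, so the replicates marked adjacent rather than the same bases. Farther in, peaks at chr14:17746249-17746615 and chr14:17820279-17821401 had maxima of 19 and 21, and of 10 and 3. The remaining peak, at chr14:17654927-17655606, lay 3619 bp outside the gene with 6 and 10. Near the downstream start (chr14:17981644) neither list had an interval within 2 kb. With at least 50% of each interval in the overlap, only the promoter peak of the 6 was left.

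Rxrg encodes retinoid X receptor gamma, a dimer partner present in cones and ganglion cells. Its 2 shared peaks, at chr1:167565643-167565694 and chr1:167620209-167620586, had the same ends in both lists, with maxima of 15 and 1 and of 14 and 1. The latter lay inside the gene, 1944 bp beyond its downstream start. Both dropped out when a maximum of at least 2 was required. Each list had 12 intervals in the window and no uneven one.

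The COUP-TF genes had similar numbers of intervals and different numbers of shared peaks. Nr2f1, which encodes COUP-TFI, had 11 and 14 intervals in its window of 109903 bp, and 5 of them were shared. That was 4.55 per 100 kb, more than in 99.3% of all genes, a share not matched for window width. The count of 5 fell to 2 with a reciprocal overlap of 50% or a maximum of at least 10, to 3 with midpoints within 200 bp or a maximum of at least 2, and to 0 in the gene span alone. The peaks left by the reciprocal overlap included a pair with identical ends, at chr13:78210519-78210692. Nr2f2, which encodes COUP-TFII, had 12 and 9 intervals in 114801 bp and 0 shared. The shares of replicate 1 intervals were 45.5% (95% Wilson interval 21.3 to 72.0) for Nr2f1 and 0 of 12 (upper bound 24.2%) for Nr2f2. These ranges overlap from 21.3 to 24.2, which does not show that the shares are equal. Intervals in 1 window are not replicates of a gene, and a difference between the 2 genes was not tested. The replicate 1 intervals of Nr2f2 included 1 uneven, inside the gene at chr7:70361573-70362235 (maximum 22, rank 2227 of its list). Replicate 2 had 0 intervals inside the Nr2f2 span against 4 in replicate 1. At 60839 bp from Nr2f2, just beyond the window, lay a shared peak with maxima of 11 and 7.

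None of the Nr2f1 shared peaks lay inside the gene (chr13:78188971-78198873). Upstream, chr13:78203894-78204706 had maxima of 13 and 16, ranked 1256, and lay 5021 bp from the upstream start. Between it and the gene were chr13:78201636-78202380 (7 and 13) and chr13:78200413-78200905 (16 and 1), the latter 1540 bp from that start. A pair with identical ends lay 11646 bp upstream (1 and 21). All 4 overlapped the lncRNA gene A830082K12Rik. The downstream peak, chr13:78180997-78181684, lay 7287 bp past the gene end with 10 and 22. Replicate 1 also had 4 intervals inside Nr2f1, with a highest maximum of 25, where replicate 2 had 0.

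Nr2e1 encodes TLX, an orphan receptor that keeps retinal progenitors dividing. It had 12 and 14 intervals and 4 shared peaks in 121628 bp, 3.29 per 100 kb, more than in 98.2% of genes of any window width. The count of 4 fell to 1 with a reciprocal overlap of 50%, the pair with identical ends 45894 bp upstream. With a maximum of at least 10 it also fell to 1, but to a different peak, chr10:42579924-42580688. In the gene span alone 2 were left. The 4 peaks lay to both sides of the start (chr10:42583590) and not on it. Upstream was chr10:42584725-42585308 at 1135 bp, with maxima of 29 and 6, over the lncRNA gene Gm38491. Inside the gene were chr10:42581499-42582197 at 1393 bp (26 and 3) and chr10:42579924-42580688 at 2902 bp (31 and 15). The last had the best rank of the 4, 2910, and was uneven in replicate 1 only, at 68.9% of width times maximum. The remaining one, 45894 bp upstream, had identical ends and 1 and 24. In these 3 peaks near the start, replicate 1 stood higher within its own list than replicate 2 did, at ranks of 662 and 70448 for the uneven one.

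Nr2e3 encodes a receptor of rods that represses cone genes, and rods are formed mainly after this stage. It had 8 intervals in each list and 0 shared. The upper Wilson bound for 0 of 8 is 32.4%, above the 16.9% of replicate 1 intervals shared over the 10 windows, so a difference was not detectable at this number. An interval of replicate 1 covered 139 of the 300 bases of its listed promoter (chr9:59950191-59950354, maximum 17). An uneven interval of replicate 2 lay outside the gene at chr9:59963481-59964029 (maximum 29).

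Rorb encodes an orphan receptor needed for horizontal and amacrine cells and for rods. It had 16 and 22 intervals and 3 shared peaks, and all 3 had identical ends and a maximum of 1 in either list. Their maxima were 24 and 1 at chr19:18904773-18905137, 1 and 5 at chr19:19023373-19023587, and 30 and 1 at chr19:19094706-19094881. The first is nearer to the span of Trpm6. Uneven intervals numbered 2 in each list at 4 different places. One in replicate 2 covered 218 bases of the downstream promoter (chr19:19001150-19001612, maximum 29, rank 2181), where replicate 1 had none. The upstream promoter was covered only in replicate 1 (chr19:19111333-19111626, maximum 22). A shared peak of 51 and 11 lay 55897 bp from Rorb, just outside the window.

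Esrrb, an orphan receptor of rods, had 13 and 16 intervals and 1 shared peak, at chr12:86359106-86359774. It lay 1343 bp upstream of the gene, over the lncRNA gene Gm40483, with maxima of 12 and 10 and uneven coverage in replicate 2 (48.5%). Upstream of the start inside the gene, and ending 103 bp before it, replicate 1 alone had an interval (chr12:86421063-86421541, maximum 17), which at 95.2% was the nearest above the 95% line, while 91.0% in Nr2f1 was the nearest below it.

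Nr4a2 encodes NURR1, an orphan receptor of dopaminergic neurons that also marks amacrine cells. It had 7 and 8 intervals and 1 shared peak inside the gene, at chr2:57116372-57117106. The maxima were 5 and 35, and the replicate 2 interval was uneven (50.5%) and ranked 1723 of its list against 75595 in replicate 1. Replicate 2 also had an uneven interval with a maximum of 38 at chr2:57081547-57082004, with no overlap in replicate 1.

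**Figure D2:**
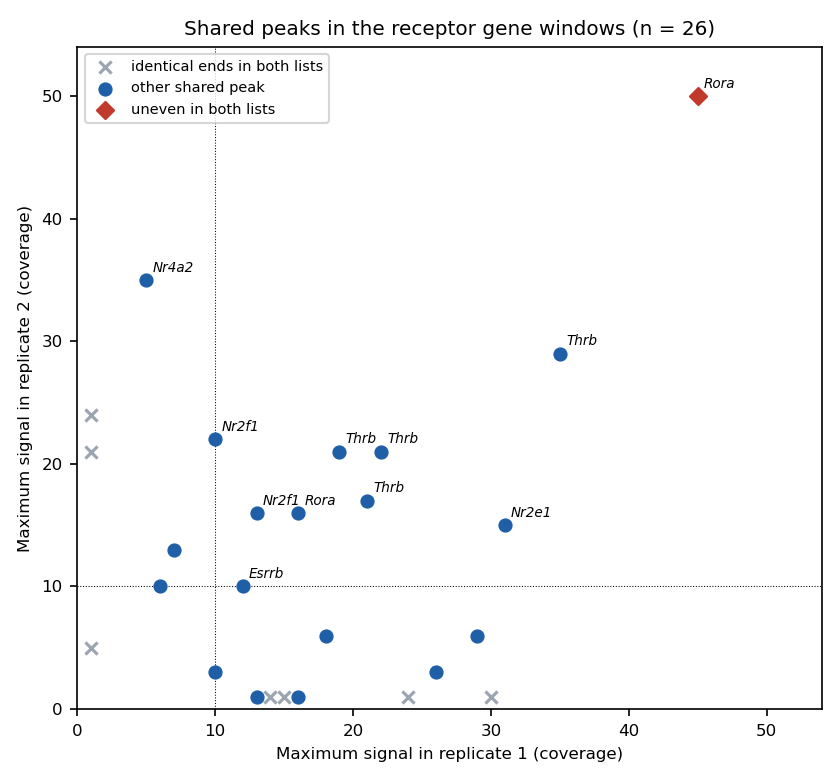
Maximum signal in replicate 1 (x axis) and replicate 2 (y axis) of the 26 shared peaks, with dotted lines at 10. In 10 peaks of Thrb, Nr2f1, Rora, Nr2e1 and Esrrb both values are 10 or more, and all 7 with identical ends have a value of 1 in either list.

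Pairs with identical ends made up 7 of the 26 shared peaks, in Nr2e1, Nr2f1, Rxrg and Rorb, and each had a maximum of 1 in either list. In the genome 1850 of 13704 shared peaks had identical ends, and 1761 of those had a maximum of 1 in at least 1 list. Whether reads passed from one library to the other in such pairs was not tested, and that would make these pairs no independent recurrence. Without them 19 shared peaks near 6 genes were left, and Rxrg and Rorb had 0. Of all 26, 10 had a maximum of at least 10 in both lists (38.5%, against 28.3% of all shared peaks), and 13 were among the 5000 best-ranked (50.0% against 36.5%). The midpoints of the stretches at maximum signal lay 176 bp apart in the median, from 0 to 488 bp, against 123 bp over all shared peaks, and 237 bp against 151.5 bp without identical pairs. In 14 of the 26 both intervals were flat, so that this stretch was the whole interval and the distance is one between interval midpoints. Duplicate removal is unknown, so a maximum of at least 10 in a flat interval does not count distinct fragments.

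Intervals recurred in the receptor gene windows at 16.9% in replicate 1 (26 of 154, 95% Wilson interval 11.8 to 23.6) and 15.7% in replicate 2 (26 of 166, 10.9 to 22.0). In the windows of all protein-coding genes the shares were 11.9% and 9.74%. The first of these lay within the receptor gene interval and the other just below it. All these shares keep pairs with identical ends, and 19 of the 26 shared peaks of the set were left without them. The shares around all genes without such pairs were not computed. The Wilson intervals cover counting error only, as amplified reads are not independent molecules. The windows held 5.97 and 6.43 intervals per 100 kb, against 5.06 and 6.18 in those of all genes. Flat intervals were 80.5% and 82.5% of the set and 80.8% and 82.2% around all genes. Uneven intervals numbered 7 and 12, which was 4.55% and 7.23% of the set against 6.60% and 6.13% around all genes. Of the 7 and 12, 3 and 5 overlapped the other list, and this share was not computed for all genes.

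A shared peak in the window is common: 55.4% of all genes had one, against 8 of the 10 receptor genes. Window width bears on this. Among genes with windows under 150 kb 51.5% had one, against 4 of 6 receptor genes (Nr2e1, Nr2f1, Rxrg and Nr4a2). Among those with windows of 250 kb or more 82.3% did, against 4 of 4 (Thrb, Rora, Rorb and Esrrb). A shared peak with a maximum of at least 10 in both lists was near 27.8% of genes and near 5 of the 10. Among those 5, Thrb, Rora and Esrrb had windows of 250 kb or more, and the 27.8% was not split by width. A shared uneven peak was near 7.53% of genes and near 1 of the 10, Rora, and near 14.8% of genes with windows of 250 kb or more. The count for uneven peaks is close to that background. The median density was 0.961 shared peaks per 100 kb over the 10 and 0.555 over all genes, with 6 of the 10 above the latter. Pairs with identical ends are counted in these densities. Such pairs were 7 of the 26 shared peaks of the set, against 1850 of 13704 in the genome. Rxrg and Rorb, at 1.42 and 1.07 and among the 6, had 0 shared peaks without them. The densities of all genes without such pairs were not computed, so these medians do not show a higher density in the set.

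**Figure D3:**
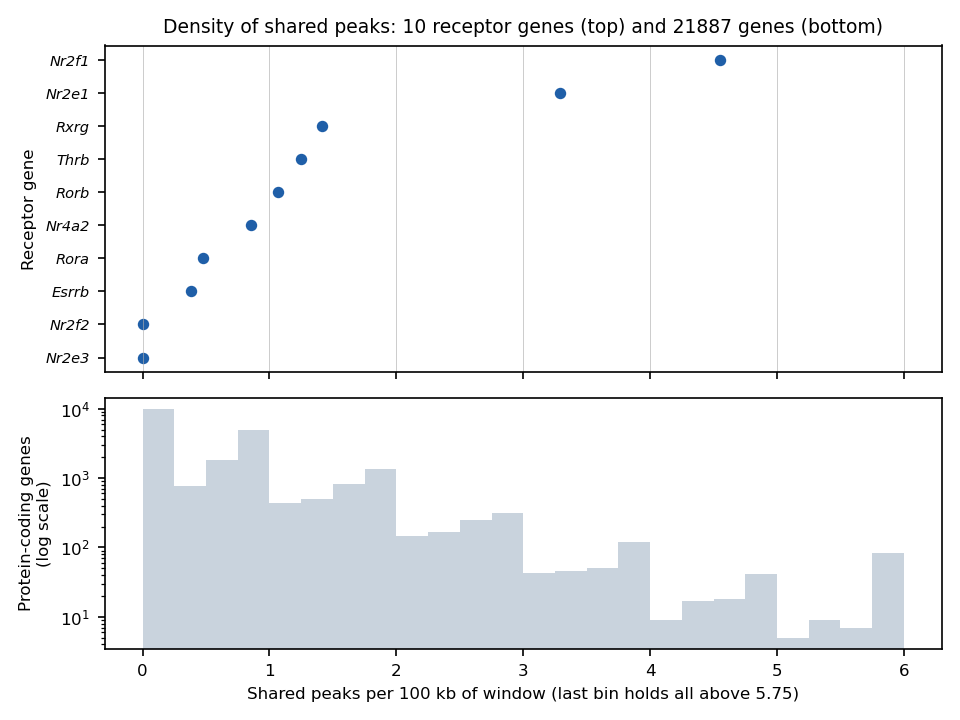
Shared peaks per 100 kb of window (x axis) for the 10 receptor genes (top, 1 point a gene) and for 21887 protein-coding genes (bottom, number of genes on a log scale). Nr2f1 at 4.55 and Nr2e1 at 3.29 lie in the upper tail, and Nr2f2 and Nr2e3 are at 0.

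Within 1 kb of a listed start a shared peak was found for 1 of the 10 genes, Thrb, and for 10.3% of the 17492 coding genes with a listed start. In replicate 1 alone 5 of the 10 (Nr2e3, Nr2f1, Thrb, Rorb and Esrrb) had an interval there, against 33.9% of genes. In replicate 2 alone 3 of the 10 (Thrb, Rorb and Esrrb) did, against 32.8%. Within 2 kb, shared peaks were found for 5 of the 10, with Nr2e1, Nr2f1, Rxrg and Esrrb added. The share was 11.3% of genes, and 8 of the 33 other nuclear receptor genes with a listed start. The 10 genes had 15 listed starts, and a gene with more starts had more places to be counted. Among the 5 of the set, the Rxrg peak had identical ends, and those of Rxrg and Nr2f1 had a maximum of 1 in replicate 2. Of the 26 shared peaks 11 lay within 10 kb of a start, near 6 genes. The share of all shared peaks within 10 kb of a start was not computed, so this count has no background beside it.

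**Figure D4:**
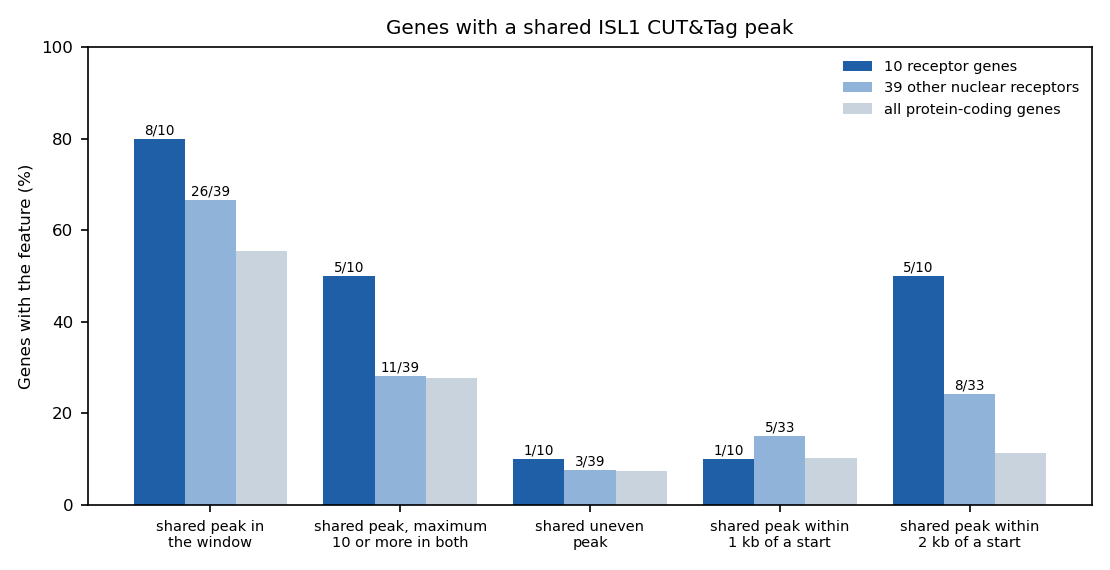
Share of genes (y axis, percent) with each kind of shared peak, for the 10 receptor genes, the 39 other nuclear receptor genes and all protein-coding genes, with counts above the bars. The set and all genes are nearly level for uneven peaks and for starts within 1 kb. They stand farthest apart for starts within 2 kb, at 5 of 10 against 11.3%, with the other receptors between them at 8 of 33.

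Among the 39 other nuclear receptor genes of the mouse, 26 had a shared peak in the window and 3 a shared uneven one, with a median of 0.608 shared peaks per 100 kb. A shared peak within 1 kb of a start was found for 5 of the 33 with a listed start, and within 2 kb for 8. The uneven ones were near Ppard (31 and 22), Nr1i3 (7 and 44) and Esrra (14 and 47), but the nearest coding starts were those of Fance, B4galt3 and Prdx5. The 5 best-ranked were near Rxrb (rank 237), Ppard (303), Esrra (462), Nr2f6 (586) and Hnf4a (658). In each of these 5 the nearest coding start belonged to another gene. The best-ranked shared peak was nearest to the start of another coding gene for 10 of the 22 other receptors with such a peak and a listed start, and for 2 of the 8 in the retinal set, Thrb (LOC115488350) and Rora (Ice2). Of all 26 peaks of the set, 6 were nearest to another start, 4 of Thrb and 2 of Rora. The densities closest to that of Nr2f1 were 3.71 per 100 kb at Nr2f6, a further COUP-TF relative, 2.79 at Nr1h4 and 2.04 at Rara.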

How the data were processed

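CUT&Tag for ISL1 was analysed in 2 replicates of 1 group. The deposited lists have 6 columns, which match SEACR output, with total and maximum signal as whole-number coverage. Per the submitters' processing notes FastQC, Bowtie2, MACS2 and SEACR were used with build mm10. For their roles and versions, the threshold, any control track and duplicate removal, the sources used here give nothing. The number of reads is unknown, so signal was ranked within a list and not compared in size between lists. A kept duplicate raises the signal of an interval.

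Starts are 1-based. Genes, spans and promoters came from RefSeq tables for GRCm38.p6, with no exons. Ranks of shared peaks use the mean rank of total signal, and peaks joined by several intervals carry the strongest of each list. Joins were made in Python 3.11.15 with pandas 2.3.3, tested on simulated lists (150 of 150 planted overlaps recovered), and checked with bedtools 2.31.1 (14207 intervals of replicate 1 overlapping replicate 2 by both). Members and lists were chosen with earlier results of these data known, and so were the window classes of 150 kb and 250 kb. All 10 members are named. Other receptors are named where they had a shared uneven peak, one of the 5 best ranks, or one of the 3 densities nearest to the highest member. Alternatives covered overlap, signal, window, start distance, unevenness and single replicates. No genome sequence was used here, so motifs were sought in promoters only.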

Additional observations from a re-analysis of the deposited data

How the results depend on the processing

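The 26 shared peaks became 13 with a reciprocal overlap of 50%, 17 with a maximum signal of at least 2, 10 with a maximum of at least 10 and 15 in gene spans alone. All 7 pairs with identical ends pass a reciprocal overlap by construction and are among the 13. Under that definition Nr2e1, Rxrg and Rorb were counted through such pairs alone. Between 19 and 31 were counted under the 5 other alternatives that changed the overlap or window, and 26 without maxima above 100. The count of 8 genes with a shared peak became 5 with a maximum of at least 10, and ranged from 6 to 9 under the other definitions and windows. In either list alone, all 10 genes had an interval, where the windows of all genes held 5.06 and 6.18 intervals per 100 kb. The shares of all genes with an interval, or with an uneven one, in 1 list alone were not computed. The single gene with a shared uneven peak, Rora, was the only one under all 12 alternatives that kept both lists, while 5 to 7 genes had an uneven interval in 1 list alone. The single gene with a shared peak at a start became 5 within 2 kb, and 3 to 5 in 1 list alone. Of 100 counts for single genes under these alternatives, 75 stayed within 1.5 times the value given. Thrb had 1 with a reciprocal overlap of 50% and 2 with midpoints within 200 bp, Rorb and Rxrg had 0 where a maximum of 2 or differing ends was required, Nr2e3 had 1 with midpoints within 200 bp, and Nr2f2 had 1 within 100 kb. The cause of these changes beyond the construction of each alternative was not tested. With 2 lists and no control, recurrence is the only check on an interval, its independence in pairs with identical ends was not tested, and the unknown depth sets how many could recur.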
